A study of Mus musculus with 12 samples.

Results

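Neurexins are adhesion proteins of the presynaptic membrane, and neuroligins are their postsynaptic binding partners across the synaptic cleft. The genes described here are the neurexins Nrxn2 and Nrxn3 and the neuroligins Nlgn1, Nlgn2 and Nlgn3, chosen by name: 5 of the 18208 genes in the RNA-seq table. In the CLIP-seq count table they hold 646 of 147438 distinct positions, each 100 nt wide, and in the authors' peak lists 50 of 14711 distinct positions are assigned to them, 3 of which carry another gene's ID in the peak's own name. Neurexin transcripts are long, start at alternative promoters and are extensively alternatively spliced, and the splice form decides which partners a neurexin binds. Nlgn1 protein is found mainly at excitatory synapses, Nlgn2 at inhibitory synapses and Nlgn3 at both. The RNA-binding protein hnRNP H prefers runs of guanines (G-runs) and takes part in splicing and 3′ end formation.

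The study crosslinked hnRNP H to RNA in mouse striatum and sequenced the bound RNA (CLIP-seq) beside total RNA (RNA-seq) after an injection of methamphetamine or saline. All mice were wild-type C57BL/6J, aged postnatal day 50 to 100, bred from C57BL/6J females and males heterozygous for an Hnrnph1 mutation. Every mouse had saline on the first 2 days, and on day 3 either saline again or methamphetamine at 2 mg/kg, and whole striata of both sides were taken 30 min later. Each of the 3 saline and 3 methamphetamine replicates pooled the tissue of 4 mice, 2 females and 2 males, and gave 1 CLIP library and 1 RNA library. Values are for whole tissue and whole genes, so fewer cells of a type and less RNA per cell cannot be told apart, and splice forms of a neurexin are not separated.

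RNA libraries held 3935160 to 5091839 reads and CLIP libraries 423057 to 1635338 reads in peak positions. The first principal component split the libraries of both assays the same way, across treatment: set A held saline replicates 1 and 3 and methamphetamine replicate 2, and set B held saline replicate 2 and methamphetamine replicates 1 and 3. This component carried 65.6% of the RNA variance. All 9 markers of striatal projection neurons were present, with Drd1 lowest at a mean of 7.27 log2 CPM. Their summed level was 7554 to 8768 CPM in set A and 5484 to 6298 CPM in set B, while 5 cortical excitatory neuron markers summed to 132.5 to 368.1 CPM in set A and 390.3 to 774.5 CPM in set B, and 5 astrocyte markers to 463.6 to 576 CPM and 646.7 to 770.2 CPM. By treatment these sums overlapped: 6298 to 8768 CPM in saline and 5484 to 7554 CPM in methamphetamine for the striatal markers, 132.5 to 473.9 and 368.1 to 774.5 CPM for the cortical ones, and 463.6 to 646.7 and 502.1 to 770.2 CPM for the astrocyte ones. Methamphetamine minus saline, all 9 striatal markers had negative differences (median -0.23 log2), and 3 of the 9 had groups that did not overlap, beside 6.01% of all genes. Differences were positive, with overlapping groups, for 4 of 5 cortical (median 0.81), 5 of 5 astrocyte (0.21), 5 of 5 oligodendrocyte (0.47), 5 of 5 microglia (0.08) and 2 of 3 endothelial markers (0.25). None of the markers passed limma's test after adjustment. The 4 choroid plexus markers had positive differences (median 1.44) and summed to 37.8 to 188.6 CPM in saline and to 56.3 to 4787 CPM after methamphetamine. The 4787 is methamphetamine replicate 2, where Ttr had 20129 reads and Folr1 128, while the other 2 methamphetamine libraries summed to 56.3 and 158.3 CPM. The part of cell makeup in the values below was not tested.

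hnRNP H reads at these genes lay mainly in introns except at Nlgn3, where introns held 45.7% of reads, and intron sequence was not read here. The sequences shown are those of exonic peaks, because they let the G-runs be seen. Each is printed 5′ to 3′ on the gene's strand, from GENCODE M21 transcripts on GRCm38, with runs of 3 or more G in capitals. For a 3′ UTR peak the 30 bases richest in G-runs are given, and a coding peak is given whole. The smallest p is among the tested positions of Nrxn2 and was not under 0.05.
Nrxn2, 3′ UTR, chr19:6532932-6532961 (+), start of the peak with most reads: gaggagcGGGtGGGGGGGcGGGGGGaGGGG
Nrxn2, 3′ UTR, chr19:6532457-6532486 (+), in the peak with the smallest p: ggtGGGGctGGGcGGGaaggaaggctGGGG
Nrxn2, 3′ UTR, chr19:6532392-6532421 (+), in a peak of the methamphetamine list: tcaggcaGGGcacgtgctcacagccctGGG
Nrxn2, coding exon, chr19:6504932-6505031 (+), in the methamphetamine list: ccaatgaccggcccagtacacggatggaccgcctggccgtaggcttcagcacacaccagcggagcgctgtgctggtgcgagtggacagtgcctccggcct
Nlgn2, 3′ UTR, chr11:69824793-69824822 (-), in a peak of both lists: ttttgtttttgttttattcGGGGGGGGGGG
Nlgn2, 3′ UTR, chr11:69823673-69823702 (-), in a peak of the saline list: gagcagatggaGGGGctgtGGGGGacaGGG
Nlgn3, coding exon, chrX:101318369-101318468 (+), the peak with most reads: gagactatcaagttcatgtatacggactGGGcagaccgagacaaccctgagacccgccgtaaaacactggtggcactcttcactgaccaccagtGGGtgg
Nlgn3, coding exon, chrX:101320140-101320239 (+), in the methamphetamine list: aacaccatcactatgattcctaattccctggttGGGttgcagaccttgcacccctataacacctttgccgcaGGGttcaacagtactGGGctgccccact

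G-runs were not in every exonic peak of these genes. Of 9 listed positions that lay within 1 exon on the gene's strand, 5 held GGG on that strand (55.6%, Wilson 95% interval 26.7 to 81.1%), beside 81.7% of the 4122 such positions in the lists as a whole. GGGG was in 3 of the 9 (33.3%) and in 48.7% of all. The 4 without GGG were the Nrxn2 coding peak shown above, Nrxn2 3′ UTR chr19:6532532-6532631, Nlgn2 3′ UTR chr11:69824623-69824722 and Nlgn1 3′ UTR chr3:25427816-25427915. With 50 bases added on each side, all 8 that could still be read held GGG, as did 94.5% of all listed positions read that way.

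Total RNA of the 5 genes was measured at very different levels. In CPM per kb of exon, the saline means ± SD (n = 3) were 65.8 ± 3.41 for Nlgn2, 55.2 ± 5.49 for Nrxn2, 21.2 ± 3.54 for Nlgn3, 19.0 ± 2.43 for Nrxn3 and 4.06 ± 0.552 for Nlgn1. After methamphetamine the means were 63.7 ± 8.63, 49.9 ± 6.86, 21.5 ± 2.78, 20.0 ± 2.86 and 3.64 ± 0.247 in the same order. The ranges of Nlgn3 and Nrxn3 overlapped in both treatments, though Nlgn3 was above Nrxn3 in each library. Those of Nlgn2 and Nrxn2 overlapped after methamphetamine only, and Nlgn2 was above Nrxn2 in each library. These orders were not tested. Nlgn1 was below the other 4 genes in each library. Nlgn2 stood at the 96.7th percentile of 17927 genes in saline on this scale and Nlgn1 at the 59.6th.

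No member's RNA passed the test for treatment. Nrxn2 was at 9.71, 9.42 and 9.57 log2 CPM in saline replicates 1 to 3 and at 9.21, 9.61 and 9.43 in methamphetamine replicates 1 to 3. Its difference, methamphetamine minus saline, was -0.15 ± 0.19 (SE). Both groups spanned overlapping values, and the lowest was methamphetamine replicate 1. Nrxn3 was at 7.93, 8.06 and 7.69 in saline and at 8.05, 7.73 and 8.14 after methamphetamine, a difference of 0.08 ± 0.18 (SE). The high Nrxn3 libraries were the 3 of set B, in both treatments. Nlgn1 was at 5.62, 5.98 and 5.68 in saline and at 5.72, 5.59 and 5.53 after methamphetamine, a difference of -0.15 ± 0.17 (SE). Nlgn1 rested on 175 to 298 reads a library, the fewest of the 5 genes, and its highest library was saline replicate 2. Nlgn2 was at 8.61, 8.48 and 8.62 in saline and at 8.28, 8.65 and 8.61 after methamphetamine, a difference of -0.05 ± 0.17 (SE). Nlgn3 was at 7.65, 7.83 and 7.34 in saline and at 7.67, 7.42 and 7.80 after methamphetamine, a difference of 0.02 ± 0.18 (SE). The treatment groups overlapped for each of the 5 genes. None of the 5 passed limma's test with Benjamini-Hochberg adjustment (adjusted p = 0.9998 for each), and neither did any of the 18208 genes (0%); 276 genes (1.52%) had an unadjusted p under 0.05, none of them a member. Over the alternatives, which leave out each library in turn, methamphetamine replicate 2 included, the members' adjusted p was 0.798 to 1.

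**Figure D1:**
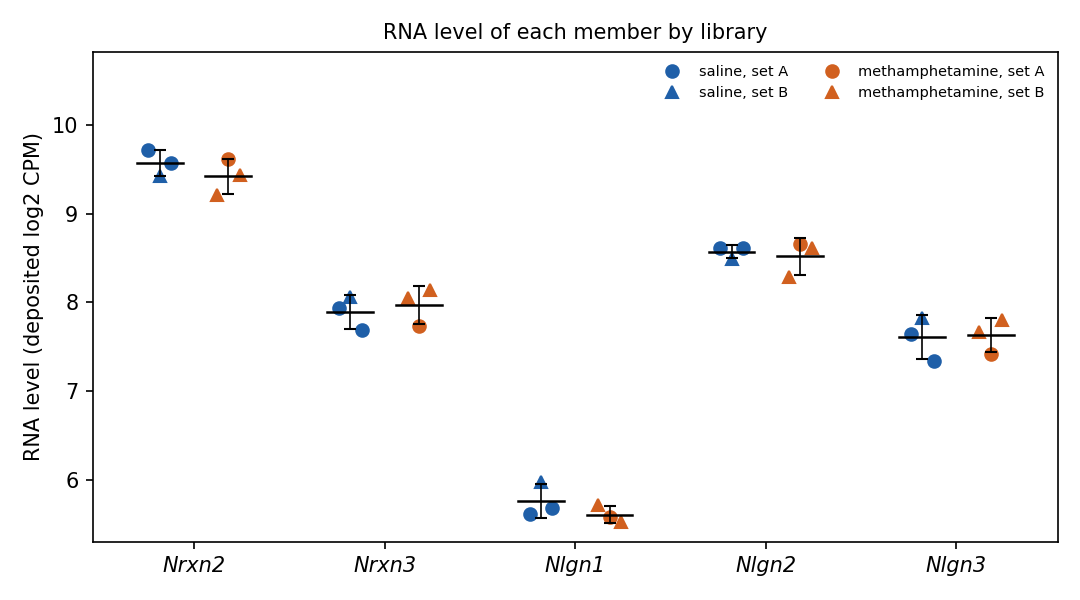
RNA level of each member as deposited log2 CPM, with 1 point per library, the mean as a bar and the SD as whiskers (n = 3 per treatment). Colour gives the treatment and shape the library set: the triangles of Nrxn3 and Nlgn3 lie above their circles, those of Nrxn2 below, and the treatments overlap for each gene.

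These levels were ordered by library set. Set B minus set A was 0.30 log2 for Nrxn3 and 0.29 for Nlgn3, and -0.28 for Nrxn2 and -0.17 for Nlgn2, with no overlap between the sets for these 4 genes. For Nlgn2 the sets all but met, with saline replicate 1 of set A and methamphetamine replicate 3 of set B both at 8.6134. Nlgn1 differed by 0.11 and its sets overlapped. The sets come from these same values, so this is a description; among the 7853 genes with a mean above 4 log2 CPM, 46.3% had sets that did not overlap. Within sets, the treatment difference of Nrxn3 was -0.08 in set A and 0.03 in set B, and that of Nrxn2 was -0.03 and -0.10. For Nlgn1 it was -0.07 and -0.35, for Nlgn2 0.04 and -0.04, and for Nlgn3 -0.07 and -0.09.

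The genes whose RNA ran most like each member over the 6 libraries were taken by the mean absolute difference of centred log2 CPM. For Nrxn2 these were Fam8a1 (0.03) and Shc2 (0.03), and for Nrxn3 Eif4a3 (0.02) and Alg2 (0.03). For Nlgn1 they were Arpp19 (0.03) and Kbtbd2 (0.03), for Nlgn2 Mef2d (0.01) and Cacnb3 (0.02), and for Nlgn3 L1cam (0.02) and Gnal (0.02). Nlgn3 and Nrxn3 differed from each other by 0.04, and Nrxn2 and Nlgn2 by 0.05. Nrxn2 and Nrxn3, of the same family, differed by 0.29.

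hnRNP H reads at the neurexins and neuroligins were unevenly divided. Over the 6 libraries Nrxn3 had 5949 CLIP reads at 347 positions, Nrxn2 2363 at 200, Nlgn1 2262 at 20, Nlgn2 788 at 44 and Nlgn3 197 at 35. Nrxn3 stood at the 98.8th percentile of 8182 genes for CLIP reads. Per kb of gene, however, the order was Nlgn2 with 53.7 reads, Nrxn2 with 18.8, Nlgn3 with 7.35, Nrxn3 with 3.69 and Nlgn1 with 2.50, beside a median gene of 5.38. Nrxn3 spans 1612 kb of chromosome 12 (chr12:88722876-90334935) and Nlgn1 906.2 kb of chromosome 3 (chr3:25426215-26332460). Nlgn2 spans 14.7 kb of chromosome 11 (chr11:69823122-69837784), Nlgn3 26.8 kb of the X chromosome (chrX:101299168-101325963) and Nrxn2 125.4 kb of chromosome 19 (chr19:6418731-6544169).

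The members also differed in which part of the gene was bound. All Nrxn3 reads were intronic, as were 96.4% of Nlgn1 and 83.5% of Nrxn2 reads, beside 70.4% of reads over all positions. The 3′ UTR held 33.3% of Nlgn2 reads, 25.9% of Nlgn3 reads and 14.9% of Nrxn2 reads, beside 8.16% over all positions. Coding exons held 28.4% of Nlgn3 reads, which were 56 reads in all. These coding positions lie within Gm21986, a transcript annotated on the same strand, so their reads cannot be assigned to Nlgn3 alone. In Nlgn2, 39.0 to 56.2% of a library's reads lay in the first 20% of the gene's length and 25.6 to 39.0% in the last 20%. In Nrxn2 the share of reads in the 3′ UTR ranged from 7.68% in saline replicate 1 to 28.8% in saline replicate 2, so this share varied within a treatment.

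**Figure D2:**
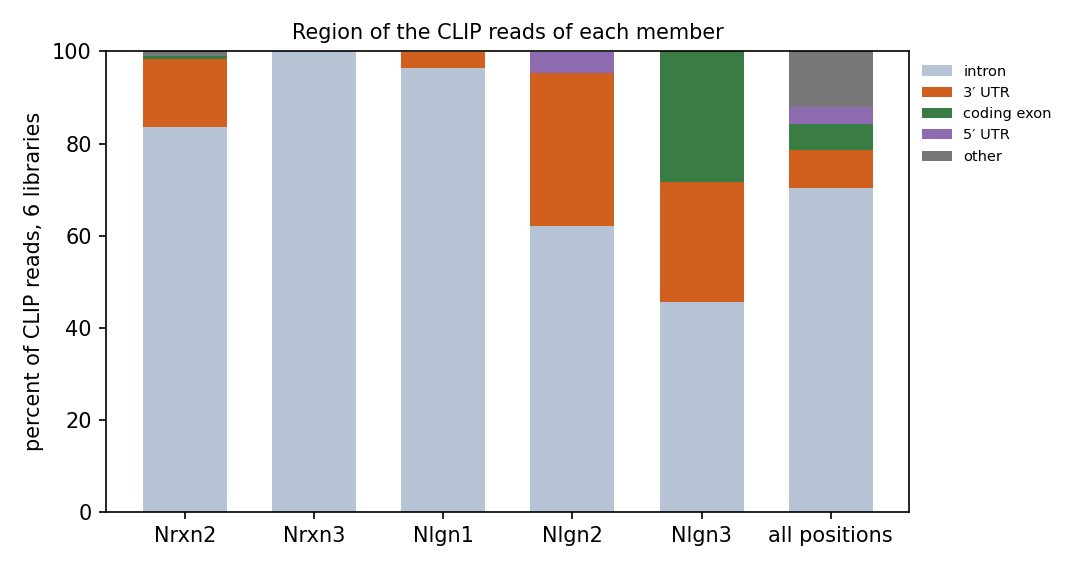
Percent of CLIP reads of the 6 libraries together that lie in introns, 3′ UTR, coding exons, 5′ UTR or other positions, for each member and for all positions. Nrxn3 is wholly intronic, whereas 33.3% of Nlgn2 reads and 25.9% of Nlgn3 reads are in the 3′ UTR.

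The Nrxn3 position with most reads over the 6 libraries was intronic, chr12:89721477-89721576, 999 kb from the 5′ end of the gene. In saline it had 143, 17 and 300 reads and after methamphetamine 25, 151 and 80, by replicate, and it was in neither of the authors' lists. In CPM it was at 135.8, 40.2 and 183.4 in saline and at 27.5, 154.1 and 134.4 after methamphetamine. The low libraries, saline replicate 2 and methamphetamine replicate 1, were both of set B, and the treatments overlapped. In each of them another Nrxn3 position was highest, with 42 and 27 reads. Next highest over the 6 libraries was chr12:90049377-90049476, with 43, 12 and 63 reads in saline and 24, 41 and 15 after methamphetamine. It was in the saline list. Neither passed the test: the log2 changes were -0.04 ± 0.63 and -0.01 ± 0.36 (SE). Within sets A and B they were -0.06 and 0.73 at the first and 0.05 and 0.01 at the second. The Nrxn3 position with the smallest p, chr12:88921977-88922076, had 31, 3 and 42 reads in saline and 2, 17 and 2 after methamphetamine, with a log2 change of -1.31 ± 0.73 (SE). Its 3 set A libraries were above its 3 set B libraries, the change was -0.62 within set A and -0.87 within set B, and without methamphetamine replicate 2 it was -2.56. Methamphetamine replicate 2 lay between the saline values there, and edgeR's quasi-likelihood test gave an adjusted p of 0.9998. Another position of the saline list, chr12:89638277-89638376, was named after its values were seen, because 105 of its reads came from saline replicate 1 and the other libraries had 0, 2, 4, 0 and 0.

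Methamphetamine replicate 1 stood apart in how its Nrxn3 reads were spread. It had reads at 300 of the 347 positions (86.5%), beside 26.8 to 61.4% in the other 5 libraries. Over all genes, 69.1% of positions had reads in that library and 36.8 to 64.5% in the others. The 10 highest Nrxn3 positions over the 6 libraries held 8.05% of its Nrxn3 reads, and 18.8 to 43.1% of those of the other libraries. Outside these 10 it had 1720 CPM, where the other libraries had 459.8 to 745.3. This library therefore had the most Nrxn3 reads, 1701, although it was 5th highest of the 6 in CPM at the 10 highest positions.

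**Figure D3:**
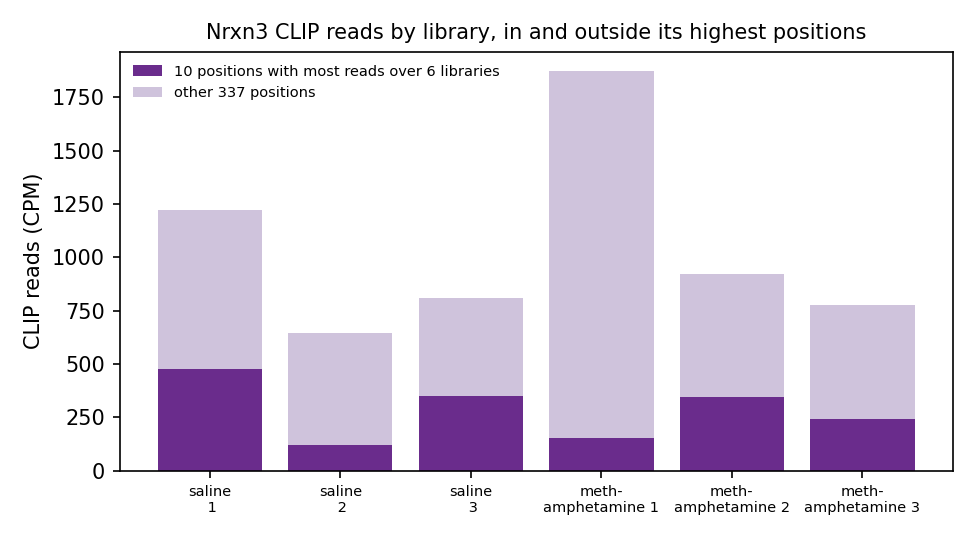
CLIP reads in CPM at Nrxn3 in each library, split into its 10 positions with most reads over the 6 libraries (dark) and its other positions (light). Bars are stacked: the light part of methamphetamine replicate 1 is 1720 CPM and its dark part 150.7 CPM.

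Nlgn1, the excitatory-synapse neuroligin, had few positions, and its 5 highest held 68.4% of its reads, beside 21.1% for Nrxn3. Of its 15 positions with at least 30 reads, 5 had over 50% of them in 1 library, as had 4 of 35 in Nrxn3, 0 of 14 in Nrxn2 and 0 of 11 in Nlgn2. The highest was intronic, chr3:25938216-25938315, 394 kb from the 5′ end, with 16, 23 and 48 reads in saline and 89, 29 and 249 after methamphetamine. Scaled to TMM library sizes these were 18.1, 82.4 and 35.3 CPM in saline and 183.1, 34.9 and 630.7 after methamphetamine. Methamphetamine replicate 2 lay within the saline range, so the groups overlapped. This was the 1 member position with an unadjusted p under 0.05 (0.0321) in edgeR's quasi-likelihood test, at a log2 change of 2.69 ± 1.03 (SE), and it did not pass adjustment over 10358 positions (adjusted p = 0.9998). The 3 set B libraries were all above the 3 of set A, and the change was 0.42 within set A and 2.01 within set B. Without methamphetamine replicate 3, which held most of its reads, the change was 1.32. Over its alternatives the adjusted p ranged from 0.287 to 1. The second position, chr3:25549916-25550015, had 92, 40 and 147 reads in saline and 33, 91 and 25 after methamphetamine, with a log2 change of -0.55 ± 0.38 (SE) that was 0.05 within set A and -1.10 within set B. The 3′ UTR position chr3:25427816-25427915 had 3, 48 and 0 reads in saline and 31, 0 and 0 after methamphetamine, so 48 and 31 of its 82 reads came from 2 set B libraries.

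Nrxn2 reads were spread over 200 positions, of which the highest held 7.15% of the reads and the 5 highest 24.0%. The 2 highest are given first. The 3′ UTR position chr19:6532932-6533031, whose first bases are the Nrxn2 run of G shown first above, had 19, 15 and 42 reads in saline and 40, 30 and 23 after methamphetamine. Its log2 change was 0.77 ± 0.51 (SE), and the groups overlapped. Within sets the change was 0.44 and 0.35, and over its alternatives it ran from 0.33 to 1.12. The intronic position chr19:6435532-6435631, 16.9 kb from the 5′ end, had 39, 10 and 44 reads and 15, 31 and 20 reads, with a log2 change of 0.07 ± 0.40 (SE). A second 3′ UTR position, chr19:6532432-6532531, with 5 G-runs, had 8, 10 and 13 reads in saline and 34, 13 and 12 after methamphetamine, and methamphetamine replicate 1 was the high library. Its log2 change of 1.24 ± 0.78 (SE) was 0.61 within set A and 0.35 within set B, 0.44 without methamphetamine replicate 1 and 1.99 without saline replicate 2. Its p was the smallest of the tested Nrxn2 positions, at 0.153 unadjusted and 0.9998 adjusted in edgeR's quasi-likelihood test, and it was in neither list. In CPM the set B libraries were above those of set A at both of these 3′ UTR positions. The 3′ UTR position chr19:6532632-6532731, in the saline list, had 8, 15 and 24 reads and 20, 19 and 6 reads. The authors' lists also assign to Nrxn2 positions on the opposite strand whose peak names carry the ID of the antisense gene Gm14964. One of these, chr19:6531512-6531611 of the methamphetamine list, had 3, 5 and 19 reads and 6, 5 and 16 reads.

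At Nlgn2, of inhibitory synapses, the 2 highest positions were adjacent in an intron near the 5′ end. At chr11:69836323-69836422 there were 25, 0 and 27 reads in saline and 8, 5 and 9 after methamphetamine, and at chr11:69836223-69836322 there were 13, 1 and 28 reads and 18, 4 and 8 reads. Saline replicate 2 was the low library at both. The log2 changes were -0.30 ± 0.90 and 0.48 ± 0.81 (SE), and they went opposite ways within the sets: -1.59 and -1.41 in set A and 2.97 and 2.24 in set B. The 3′ UTR position with a run of 11 G, chr11:69824723-69824822, was in both lists and had 7, 8 and 10 reads in saline and 18, 5 and 2 after methamphetamine. The adjoining chr11:69824623-69824722 had 5, 5 and 19 reads and 11, 7 and 3 reads, and chr11:69823623-69823722 had 5, 1 and 12 reads and 4, 6 and 4 reads. Of the 44 Nlgn2 positions 3 entered the test, and none of these had an unadjusted p under 0.05.

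Nlgn3 was thinly covered, with no position reaching 30 reads and none entering the test. Its highest, the coding position chrX:101318369-101318468, had 4, 4 and 6 reads in saline and 4, 4 and 1 after methamphetamine, and the 3′ UTR position chrX:101320269-101320368 had 1, 3 and 7 reads and 2, 6 and 1 reads. The 1 listed position inside Nlgn3, chrX:101320140-101320239, is assigned to Nlgn3 in the authors' methamphetamine list but carries in its peak name the ID of Gm21986, a transcript that overlaps Nlgn3 on the same strand. It had 1, 1 and 2 reads in saline and 12, 3 and 3 after methamphetamine. Reads there, and at the other Nlgn3 positions within Gm21986 (chrX:101295839-101321348), cannot be assigned to 1 of the 2 genes. The coding and 3′ UTR positions named above are among them.

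**Figure D4:**
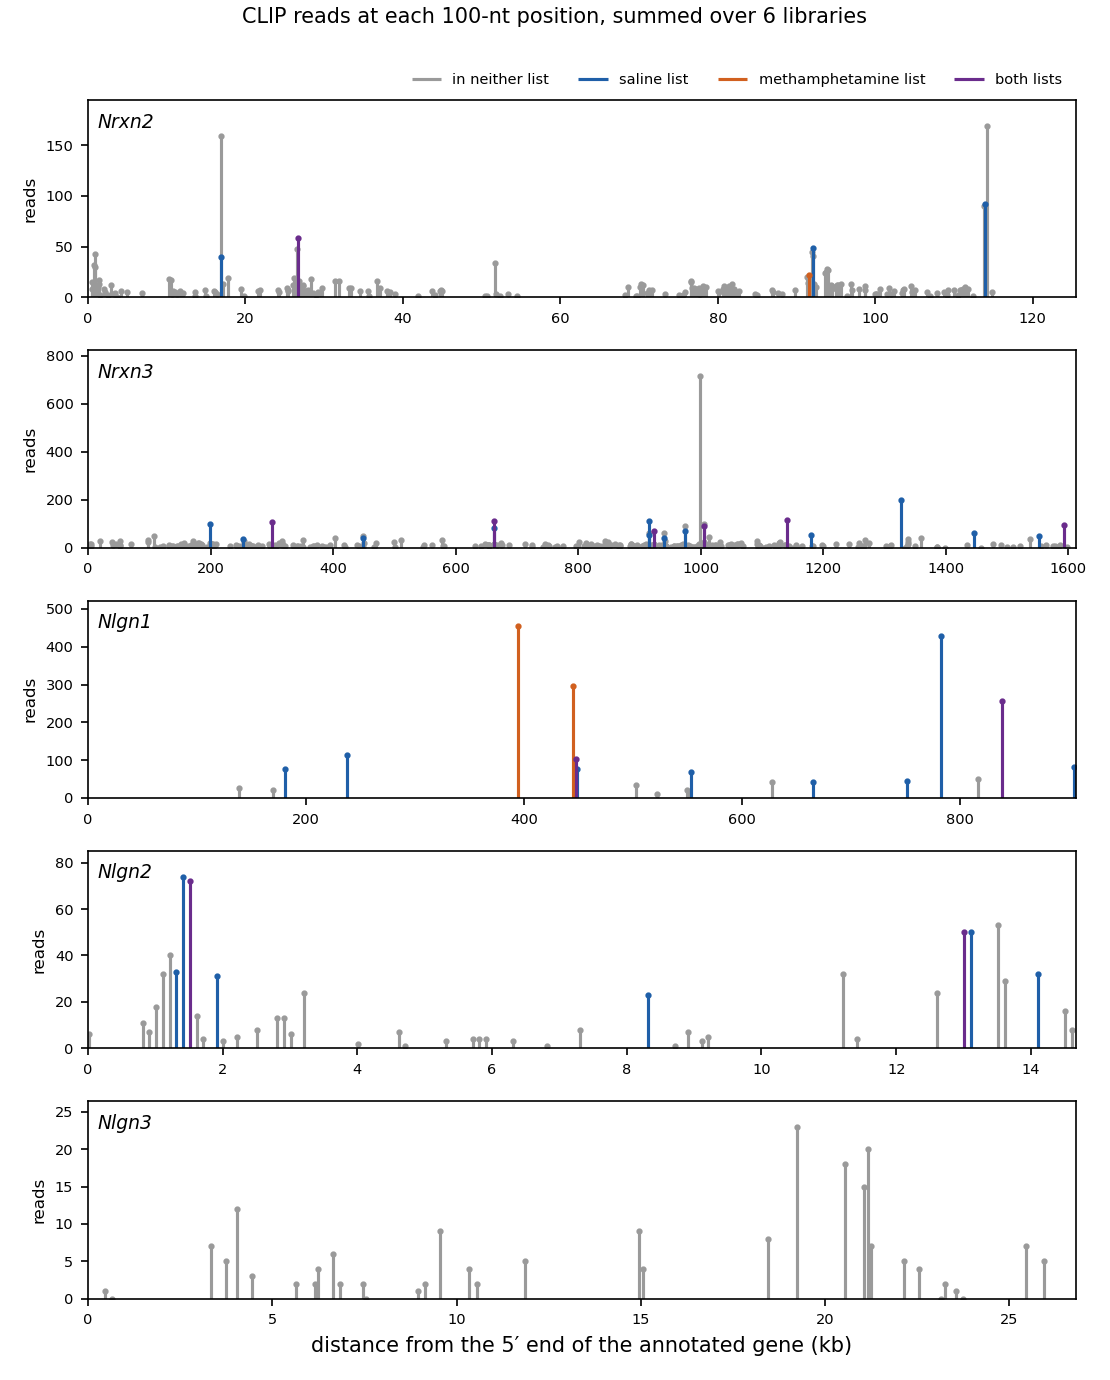
CLIP reads summed over the 6 libraries at each position in the count table (vertical axis, reads), by distance in kb from the 5′ end of each gene (horizontal axis). Colour gives the authors' list that holds the position. The highest Nrxn3 and Nrxn2 positions are in neither list. Listed positions without counts, or counted under another gene's ID, are not drawn. The Nlgn3 position whose peak name carries Gm21986 is among these.

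Summed over all positions of a gene, the hnRNP H reads of no member passed the test for treatment. In TMM-scaled CPM Nrxn3 was at 1274, 722.1 and 791.9 in saline and at 1991, 911.7 and 820.7 after methamphetamine, a log2 change of 0.42 ± 0.44 (SE). Without methamphetamine replicate 1 that change was -0.10, and over positions that meet a listed peak it was -0.43. All listed Nrxn3 positions were in the saline list, so the -0.43 follows at least in part from that choice. Nrxn2 was at 451.1, 369 and 357.6 and at 523.1, 430.1 and 528.2, a log2 change of 0.33 ± 0.31 (SE). Nlgn1 was at 410.6, 528.3 and 297.1 and at 400.2, 419 and 700.1 (0.30 ± 0.38, SE). Methamphetamine replicate 3 was the high Nlgn1 library, and without it the log2 change was -0.01. Nlgn2 was at 135.5, 180.5 and 150.9 and at 172, 119.1 and 117, a log2 change of -0.19 ± 0.35 (SE). Nlgn3 was at 20.8, 37.2 and 33.0 and at 76.1, 28.3 and 24.8, a log2 change of 0.53 ± 0.55 (SE) that was -0.16 without methamphetamine replicate 1. Within sets A and B the changes were -0.14 and 0.82 for Nrxn3, 0.10 and 0.51 for Nrxn2, 0.26 and 0.0031 for Nlgn1, -0.26 and -0.34 for Nlgn2, and 0.10 and 0.22 for Nlgn3. The groups overlapped for each member, while 9.60% of 8185 genes had groups that did not. In edgeR's quasi-likelihood test the adjusted p was 0.888 to 0.929 for the 5 genes, and 0 of 8185 genes passed (0%), with 5.24% at an unadjusted p under 0.05 and no member among them. At single positions, 0 of 10358 passed (0%), and 1 of the 30 member positions tested, the Nlgn1 position above, had an unadjusted p under 0.05, beside 3.35% of all positions tested. These 30 are positions that passed a filter on low counts, of 646: 14 of Nrxn3, 8 of Nlgn1, 5 of Nrxn2, 3 of Nlgn2 and none of Nlgn3. Of the 30 log2 changes 18 were positive and 12 negative, and none of the 30 had groups that did not overlap, beside 7.95% of all positions tested.

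**Figure D5:**
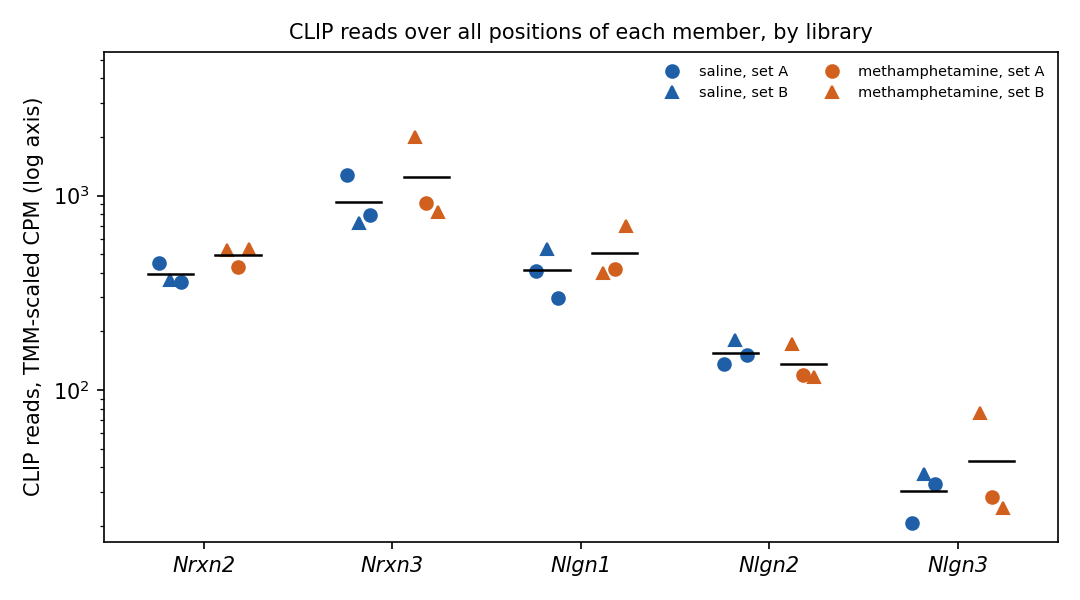
CLIP reads over all positions of each member in TMM-scaled CPM on a log axis, with 1 point per library and the mean as a bar. The treatments overlap for each gene, and methamphetamine replicate 1 is the highest Nrxn3 library at 1991.

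Set against the RNA of the same pool, the genes kept a wide range. The log2 ratio of CLIP to RNA, averaged over the 6 pools, was 3.11 for Nlgn1 and 2.06 for Nrxn3, and -0.71 for Nrxn2, -1.35 for Nlgn2 and -2.46 for Nlgn3, beside a median gene of 0.22. This ratio takes in intronic reads and was not corrected for gene length, and the genes with the highest ratios, Nlgn1 and Nrxn3, are those with the longest span. By pool, Nrxn2 was at -0.89, -0.89 and -1.08 in saline and at -0.18, -0.86 and -0.38 after methamphetamine. Every methamphetamine pool was above every saline pool, with methamphetamine replicate 2 closest to the saline values. Of the 5 members, 1 had groups that did not overlap, beside 7.52% of 7034 genes tested. The Nrxn2 log2 change of 0.48 ± 0.44 (SE) did not pass limma's test (adjusted p = 0.998), and none of the 7034 genes did (0%). An unadjusted p under 0.05 was seen for 3.00% of genes and no member. It was 0.13 within set A and 0.61 within set B. Changes of the other members were 0.27 ± 0.55 for Nrxn3, 0.44 ± 0.53 for Nlgn1, -0.15 ± 0.48 for Nlgn2 and 0.32 ± 0.58 for Nlgn3 (SE), with overlapping groups.

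The authors' lists gave these genes more positions in saline than after methamphetamine. The saline list held 43 positions: 18 of Nrxn3, 11 of Nlgn1, 8 of Nlgn2 and 6 of Nrxn2. The methamphetamine list held 19: 6 each of Nrxn3 and Nrxn2, 4 of Nlgn1, 2 of Nlgn2 and 1 of Nlgn3. These counts follow the gene symbol that the lists give. By the gene ID in the peak's own name they were 42 and 16, since 1 Nrxn2 position of the saline list and 2 of the methamphetamine list carry Gm14964 and the Nlgn3 position carries Gm21986. The lists as a whole held 9537 and 9903 positions. All 6 methamphetamine positions of Nrxn3 and both of Nlgn2 were also in the saline list, and 12 positions were shared in all, which is 12 of 43 and 12 of 19, the Gm14964 position at chr19:6531212-6531311 among them. Nrxn3 ranked 32nd of 5598 genes by listed positions in saline and 178th of 5550 after methamphetamine. Each list is 1 per treatment, so this difference has no replicate check. The count table gives replicates for most of these positions, but each list comes from the libraries of its treatment, so a higher level in a list's own treatment follows at least in part from that choice and is a description only. At the 29 same-strand positions found in the saline list only and in the count table, the median was 11.4, 9.46 and 8.56 CPM in saline and 6.60, 7.14 and 5.04 after methamphetamine. Every saline library was above every methamphetamine library at 2 of the 29, beside 9.99% of all 4536 positions of this kind. At the 4 found in the methamphetamine list only, the median was 8.07, 7.09 and 16.2 CPM in saline and 18.7, 17.4 and 10.1 after methamphetamine. Every methamphetamine library was above every saline library at 2 of the 4, beside 12.5% of all 4649, and both rest on few reads. Of these 2, Nrxn2 chr19:6510232-6510331, named after its values were seen, had 0, 2 and 5 reads in saline and 7, 5 and 3 after methamphetamine. The other is the Nlgn3 position that carries Gm21986, whose reads cannot be assigned to Nlgn3 alone. At the 11 in both lists the median was 25.6, 7.09 and 16.5 CPM in saline and 16.5, 19.4 and 13.4 after methamphetamine. In 7 of the 29 and 2 of the 4, 1 library held over 50% of the summed CPM.

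The other genes of this adhesion system were described from 5 lists. Of 18 extracellular neurexin partners (cerebellins, LRRTMs, neurexophilins, latrophilins and others), 10 had positive and 8 negative RNA differences, with a median of 0.02 log2 beside 0.002 over all genes, and none passed the test. An unadjusted p under 0.05 was seen for 2 of the 18, beside 1.52% of all genes. Nxph3, a neurexophilin that binds neurexins, was at 4.18, 4.96 and 2.77 log2 CPM in saline and at 5.19, 4.70 and 6.05 after methamphetamine, a difference of 1.34 ± 0.53 (SE). C1ql2, a secreted C1q-like protein that binds neurexin, was at 1.81, 1.40 and 2.12 in saline and at 0.14, 0.78 and -1.05 after methamphetamine, a difference of -1.82 ± 0.56 (SE). C1ql2 rested on 12, 12 and 17 reads in saline and on 5, 7 and 2 after methamphetamine, the lowest mean level of the list. Its groups did not overlap (6.01% of all genes), while the Nxph3 groups overlapped (limma adjusted p = 0.9998 for both). In limma's test 1 of 5 cortical and 1 of 4 choroid plexus markers had an unadjusted p under 0.05, beside 1.52% of all genes. No other cell type marker did. The cortical one was Tbr1, with a difference of 0.98 ± 0.37 (SE). The choroid plexus one was Folr1, with 2.47 ± 1.08 (SE). It rested on 2 to 3 reads a library in saline and on 7, 128 and 6 after methamphetamine. The part of tissue makeup in the Nxph3 and C1ql2 values was not tested.

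None of the intracellular partners passed the test either. Of 6 partners of the neurexin tail, 5 differences were positive and 1 negative (median 0.12). The smallest p was that of Apba2, an adaptor of the Mint family, whose log2 difference was 0.31 ± 0.20 (SE). With library set as a covariate the median of this list was -0.06. Of 9 neuroligin partners, scaffolds such as Dlg4 and gephyrin among them, 6 were positive and 3 negative (median 0.05). Mdga1, which binds neuroligins and blocks neurexin, had the smallest p, with a log2 difference of 0.15 ± 0.25 (SE). Of 35 other synaptic adhesion genes, 16 were positive and 19 negative (median -0.02). Ntng2, netrin-G2, had the smallest p, with a log2 difference of 0.70 ± 0.33 (SE). Of 10 splicing regulators, among them the Khdrbs proteins known to act on neurexin splicing, 4 were positive and 6 negative (median -0.01), with Nova1 at -0.54 ± 0.45 (SE). Listed hnRNP H positions were counted in the same genes. In the saline list 10 of 18 extracellular partners, 2 of 6 intracellular partners, 6 of 9 neuroligin partners, 22 of 35 other adhesion genes and 6 of 10 splicing regulators had a position, beside 29.1% of all genes and 40.4% of genes with a mean above 4 log2 CPM. In the methamphetamine list the counts were 7, 4, 6, 21 and 6 in the same order, beside 28.8% and 41.9%.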

How the data were processed

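RNA-seq values are log2 CPM that the authors deposited, voom values per the name of the deposited table; 100% inverted to whole reads with an offset of 0.5 reads (within 0.01). CLIP counts per 100-nt position were deposited as whole numbers, with 147438 distinct positions on 172271 lines; a repeated position was counted once. Each deposited peak list covers 1 treatment and holds a signal score and p-values; neither the caller nor the test is given in the sources used here. The submitters' processing notes name Trimmomatic, UMI-tools, STAR, bedtools, Subread featureCounts, limma and edgeR with build mm10, without versions or roles; strand setting and annotation are not given in the sources used here.

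Here RNA was tested with limma 3.58.1 (variance trend, no covariate), CLIP with edgeR 4.0.16 (TMM, filterByExpr, quasi-likelihood) and the CLIP minus RNA log2 difference of each pool with limma (prior count 2), each over all features with Benjamini-Hochberg adjustment at 0.05. Gene sums over positions that meet a listed peak used bedtools 2.31.1, and overlaps between the lists were taken in Python, both at 1 bp or more. DESeq2 1.42.0 was an alternative. Regions, exon lengths and sequences came from GENCODE M21 (GRCm38), and coordinates are 1-based. Gene levels per kb used merged exons. The scripts were tested on simulated data. Alternatives were other filters, scalings, tools, a replicate block, library set, and leaving out each library. Intervals cover counting error only. Replicates are separate pools per the labels.

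The members and lists were chosen with earlier results of these data known. Named from each of the 5 gene lists were genes with an unadjusted limma p under 0.05, or else the 1 with the smallest p; that rule does not cover cell type markers, and those named were chosen after their values were seen. Named positions were the 2 with most reads per member, the smallest p, and exonic listed ones. Likeness was taken over genes with a mean above 4 log2 CPM, 2 per member.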

Additional observations from a re-analysis of the deposited data

How the results depend on the processing

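The counts of features past the threshold stayed at 0 in RNA, CLIP reads per gene and CLIP relative to RNA under the alternatives run, including the fits with the replicate block. For CLIP positions the count was 414 of 140449 without a count filter, and 0 under the other alternatives. Pairing by replicate number was not seen. Taken as deviations from the mean of their treatment, same-numbered RNA libraries correlated at -0.346, -0.821 and -0.489 over 7853 genes. Saline replicate 2 correlated at 0.561 and 0.569 with methamphetamine replicates 1 and 3, all of set B. These values follow the library sets, so they cannot decide whether the numbers pair the samples. With the replicate block, unadjusted p under 0.05 fell from 276 to 144 genes in RNA and from 429 to 182 in CLIP reads per gene. The members' listed positions at or above the list's median score were 26 in the saline and 10 in the methamphetamine list. The share with GGG was 100% with widened windows and 0% of the 1 readable position at or above the median score, where GGGG was also 0%. Of 178 alternative values of the members' changes per gene, in RNA, CLIP reads and CLIP relative to RNA, 161 kept their direction and none passed the test. Single positions are not among the 178. In RNA, with library set as a covariate, Nrxn3 was at -0.025, Nlgn2 at 0.0021 and Nlgn3 at -0.083; scaling to total reads gave Nlgn2 0.029. Leaving out 1 library gave ranges that crossed 0: -0.025 to 0.20 for Nrxn3, -0.12 to 0.063 for Nlgn2 and -0.11 to 0.14 for Nlgn3. For CLIP reads per gene such ranges were -0.10 to 0.70 for Nrxn3, -0.0090 to 0.48 for Nlgn1 and -0.16 to 0.79 for Nlgn3. For CLIP relative to RNA they were -0.10 to 0.59 for Nrxn3, -0.45 to 0.0041 for Nlgn2 and -0.15 to 0.68 for Nlgn3. The CLIP change of Nrxn3 was -0.43 over positions that meet a listed peak, a choice that favours saline because all listed Nrxn3 positions were in the saline list. The causes were not tested. Depth limits Nlgn3 most, with 14 to 65 CLIP reads per library.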
